A study of Mus musculus with 7 samples.

Results

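Cdkn1a, Cdkn1b, Cdkn2a, Cdkn2b, Cdkn2c, Cdkn2d, Ccnd1, Ccnd2, Ccnd3 and Cdk6, the 10 genes for the main CDK inhibitors, the D cyclins and the kinase they drive, were examined in chromatin accessibility profiles (ATAC-seq) of hematopoietic stem and progenitor cells. Their ATAC-seq peaks were those with a summit in the gene body or within 50 kb of it (GENCODE annotation, mouse build mm10). These peaks fell in 207 of the 137340 regions that the libraries shared across the genome, and in each library they made up 214 to 232 of 137963 to 151552 peaks. The cells were LSK cells, the Lineage-, c-Kit+, Sca-1+ fraction of mouse bone marrow that holds the stem cells and early multipotent progenitors. WTAkita libraries (n = 4) came from adult WT offspring of Ins2Akita/+ dams, which carry a mutant insulin gene and are diabetic, and which had been fed a high-fat diet before they were bred with C57BL/6 males. These offspring did not carry the Ins2Akita allele themselves. Ctrl libraries (n = 3) came from adult C57BL/6 offspring of normal pregnancies bred in a like manner, WT littermate females having been given the same diet. Each library was made from 50000 LSK cells sorted from pooled bone marrow, and no source used here gives the number of mice behind a library. The p-values below therefore measure the spread between these libraries. The question put to these genes was whether the diabetic pregnancy left a difference in their accessibility in the adult offspring, and whether the Cdkn2a and Cdkn2b locus was open or closed in these cells.

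D cyclins bind CDK4 and CDK6, and the active kinases phosphorylate the retinoblastoma protein, which releases E2F factors and lets the cell pass from G1 into S phase. Proteins of the INK4 family (p16INK4a from Cdkn2a, p15INK4b from Cdkn2b, p18INK4c from Cdkn2c and p19INK4d from Cdkn2d) bind CDK4 and CDK6 and keep the D cyclins from activating them. The CIP/KIP proteins p21 (Cdkn1a) and p27 (Cdkn1b) act mainly on CDK2 complexes. Cdkn2a encodes a second protein, Arf, from its own first exon and its own promoter, and Arf holds back Mdm2 and so stabilizes p53. These genes are studied in hematopoietic stem cells because the balance of inhibitors and D cyclins influences how often a stem cell leaves quiescence, and because Cdkn2a is held silent by polycomb proteins in young stem cells.

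The Cdkn2a and Cdkn2b locus lies on chromosome 4 and is transcribed from the minus strand, with Cdkn2b at chr4:89306299-89311039 and Cdkn2a at chr4:89274471-89294653. It has 3 start sites, those of Cdkn2b, of Arf and of p16INK4a. The 200 bases upstream of each are shown because whether this locus is closed or open was the question. They were read on the minus strand (GRCm38.p6, the mm10 build) from chr4:89282193-89282392 for p16INK4a, chr4:89294654-89294853 for Arf and chr4:89311040-89311239 for Cdkn2b. Capitals mark matches, on either strand, to the searched motifs.
Cdkn2a p16INK4a: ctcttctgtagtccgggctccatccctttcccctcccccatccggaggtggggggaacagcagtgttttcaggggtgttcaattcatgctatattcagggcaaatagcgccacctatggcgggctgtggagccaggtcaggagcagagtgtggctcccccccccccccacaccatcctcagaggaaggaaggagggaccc
Cdkn2a Arf: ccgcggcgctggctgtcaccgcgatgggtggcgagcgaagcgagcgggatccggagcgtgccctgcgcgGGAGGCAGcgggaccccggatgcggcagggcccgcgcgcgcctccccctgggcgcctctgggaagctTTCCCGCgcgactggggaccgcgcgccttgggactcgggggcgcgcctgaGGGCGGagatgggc
Cdkn2b: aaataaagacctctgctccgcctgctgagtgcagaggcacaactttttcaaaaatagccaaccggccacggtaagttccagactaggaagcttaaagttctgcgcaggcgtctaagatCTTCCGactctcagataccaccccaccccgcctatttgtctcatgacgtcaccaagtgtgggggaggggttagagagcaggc
The Arf window was the most CpG-rich of the 3, with 31 CpG dinucleotides, a CpG observed-to-expected ratio of 1.02 and 78.5% G and C. The p16INK4a window had 4 CpG dinucleotides and a ratio of 0.22, and the Cdkn2b window had 8 and a ratio of 0.58, beside a median of 0.52 over the 54329 upstream windows of the annotation. The Arf window held a GC box (GGGCGG, found in 38.0% of all upstream windows), an E2F core (GCGGGAA, 4.14%) and a CTCF core (GG, any base, GGCAG, 9.34%). The Cdkn2b window held an ETS core (CGGAAG, 15.04%). The p16INK4a window held none of these 4 and none of the other motifs searched, a GATA core (GATAAG), a RUNX core (TGTGGT), AP-1 (TGANTCA), an E-box (CACGTG), a FOXO core (TGTTTAC) and the p53 pair of half-sites. These matches describe the letters only.

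All 3 start sites of the locus were open in both groups. Each had a peak with its summit within 1 kb in 7 of 7 libraries, and each peak also reached a -log10 p of 5 in 7 of 7 libraries. The measure given here is fold enrichment, the number of ATAC tags piled up at the summit over the number expected from the surrounding sequence in the same library. At the p16INK4a start, fold enrichment was 6.55, 6.12, 5.63 and 8.32 in the WTAkita libraries, against 8.70, 6.19 and 4.31 in the Ctrl libraries. The groups overlapped, and the lowest and the highest of the 7 libraries were both Ctrl. At the Arf start it was 9.54, 10.2, 12.1 and 14.0 in the WTAkita libraries, against 11.9, 13.1 and 12.6 in the Ctrl libraries. At the Cdkn2b start it was 11.2, 11.8, 11.5 and 12.7 in the WTAkita libraries, against 12.5, 13.5 and 13.3 in the Ctrl libraries. The WTAkita libraries reached lower than any Ctrl library at both sites, and the groups overlapped at both. The Cdkn2b summit lay 457 bp inside the gene, in its first intron, in the region's consensus, and only 2 libraries had their summit within 250 bp of the annotated start, whereas all 7 did at the p16INK4a and Arf starts.

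**Figure D1:**
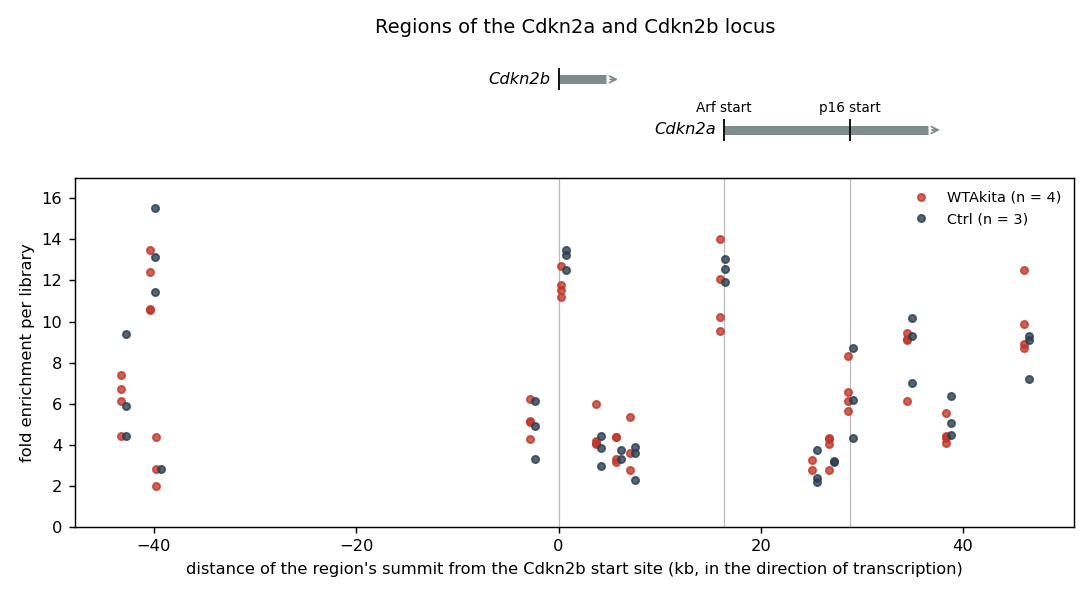
Fold enrichment per library (vertical axis) of each region around Cdkn2a and Cdkn2b against the distance of its summit from the Cdkn2b start in kb along the direction of transcription, with the genes drawn to scale above, WTAkita (n = 4) in red and Ctrl (n = 3) in dark blue. Both groups had peaks at the Cdkn2b, Arf and p16 starts, the p16 points lying between 4.31 and 8.70 and the Arf points between 9.54 and 14.0.

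The p16INK4a peak was open but small. Its fold enrichment stood at the 33.5th percentile (range over libraries 21.4 to 45.2) of all peaks within 1 kb of a protein-coding start in the same library, above the 10th percentile in 7 of 7 libraries. Its summit pileup, the number of tags over the summit base, was 38, 40, 31 and 50 in the WTAkita libraries, against 57, 41 and 22 in the Ctrl libraries, and stood at the 16.9th percentile (8.67 to 25.4). The Arf and Cdkn2b peaks had median pileups of 103 and 122 tags and stood at the 41.8th and 46.3th percentiles. Over all protein-coding start peaks the median pileup of a library was 123 to 182 tags. The rest of the locus held 12 further regions among the 15 of the Cdkn2b window, and 5 of the 15 were missed in at least 1 library. The strongest distal peak of Cdkn2b lay 40.2 kb upstream of its start, in intergenic sequence (chr4:89350914-89351801), with fold enrichment of 12.4, 10.6, 10.5 and 13.5 in the WTAkita libraries, against 11.5, 13.1 and 15.5 in the Ctrl libraries. The strongest distal peak of Cdkn2a lay 17.4 kb past the p16INK4a start in an intron of the noncoding gene Gm12606 (chr4:89264590-89265003), with 12.5, 9.88, 8.71 and 8.93 in the WTAkita libraries, against 9.31, 9.10 and 7.22 in the Ctrl libraries. In the 200 bases around its summit, 165 belonged to one short tandem repeat.

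The other inhibitor genes had larger start peaks by tag number. Cdkn2d (chr9:21288410-21291407), which encodes p19INK4d, had the largest, with summit pileups of 536, 628, 731 and 802 tags in the WTAkita libraries and 731, 730 and 669 tags in the Ctrl libraries. Its pileup stood at the 99.6th percentile of start peaks (98.8 to 99.9), and its lowest library was above the highest library of every other gene. Its fold enrichment was ordinary, 9.44, 9.50, 10.9 and 10.8 in the WTAkita libraries and 11.0, 9.50 and 10.8 in the Ctrl libraries, at the 50.1th percentile, beside a local background of 65.7 tags. The 200 bases upstream of its first start (chr9:21291408-21291607, minus strand) are shown with the matched letters in capitals, an E2F core that runs into a pair of overlapping GC boxes.
Cdkn2d: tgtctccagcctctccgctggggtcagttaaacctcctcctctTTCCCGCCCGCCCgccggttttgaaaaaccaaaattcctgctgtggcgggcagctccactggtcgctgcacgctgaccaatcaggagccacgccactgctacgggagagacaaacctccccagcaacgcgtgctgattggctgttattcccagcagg
Cdkn2c (chr4:109660876-109667189), whose protein p18INK4c restrains stem cell self-renewal in mice, had the highest median fold enrichment of any start (14.3), with 12.01, 14.3, 14.2 and 14.0 in the WTAkita libraries and 14.8, 15.02 and 14.3 in the Ctrl libraries. Its second start had a weaker peak, from 4.59 to 5.49 over the 7 libraries. Cdkn1b (chr6:134920401-134925513) had 9.42, 9.10, 10.03 and 11.0 in the WTAkita libraries and 9.60, 10.4 and 10.6 in the Ctrl libraries, with a median pileup of 339 tags.

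Cdkn1a (chr17:29090976-29100727), the p53 target that encodes p21, was open at 1 of its 3 annotated start sites. The peak at the middle start (chr17:29093484-29093974) was the least variable of all, with fold enrichment of 8.10, 7.67, 8.07 and 7.89 in the WTAkita libraries, against 8.13, 8.10 and 8.15 in the Ctrl libraries. The upstream start and the downstream start had no peak within 1 kb in any library. The Cdkn1a window held 1 match to a pair of p53 half-sites, shown here from chr17:29090906-29090937 on the plus strand with the half-sites in capitals.
p53 half-sites upstream of Cdkn1a: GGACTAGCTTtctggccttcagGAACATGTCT
It lay 42 bp before the upstream start, and such a pair is found in 0.035% of upstream windows. No library had a peak over these 32 bases, and the nearest peak was 2530 to 2561 bp away, so this sequence was not in a called open region in either group. Whether p53 binds there in these cells was not measured.

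The main starts of Ccnd1, Ccnd2 and Cdk6 had median fold enrichment of 6.68, 5.86 and 6.64, below that of Cdkn1a (8.10) and Cdkn1b (10.03). Their median local background was 33.6 tags at Ccnd1 and 33.0 at Cdk6, near the 33.8 at Cdkn1a and 34.2 at Cdkn1b, and 55.5 at Ccnd2. Ccnd1 (chr7:144929931-144939925) had 6.68, 6.50, 6.57 and 7.82 in the WTAkita libraries, against 7.33, 6.68 and 7.19 in the Ctrl libraries. Ccnd2 (chr6:127125162-127152193) had 5.604, 5.96, 5.86 and 6.44 in the WTAkita libraries, against 5.25, 7.01 and 5.69 in the Ctrl libraries. Cdk6 (chr5:3341485-3531008) had 5.50, 6.37, 7.34 and 6.91 in the WTAkita libraries, against 6.56, 6.64 and 6.86 in the Ctrl libraries. The groups overlapped at all of these starts. Ccnd3 (chr17:47505051-47599691) had peaks of unequal height at its starts. Its upstream start had 4.56, 4.19, 5.02 and 5.18 in the WTAkita libraries and 4.27, 4.96 and 4.04 in the Ctrl libraries, the lowest of the main starts. Its internal start, which lies in the last part of the gene, had 8.32, 9.09, 11.0 and 10.9 in the WTAkita libraries and 9.42, 10.1 and 9.77 in the Ctrl libraries. Secondary starts of Ccnd2 and Cdk6 had weaker peaks, 3.54 to 4.65 and 3.80 to 5.07.

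**Figure D2:**
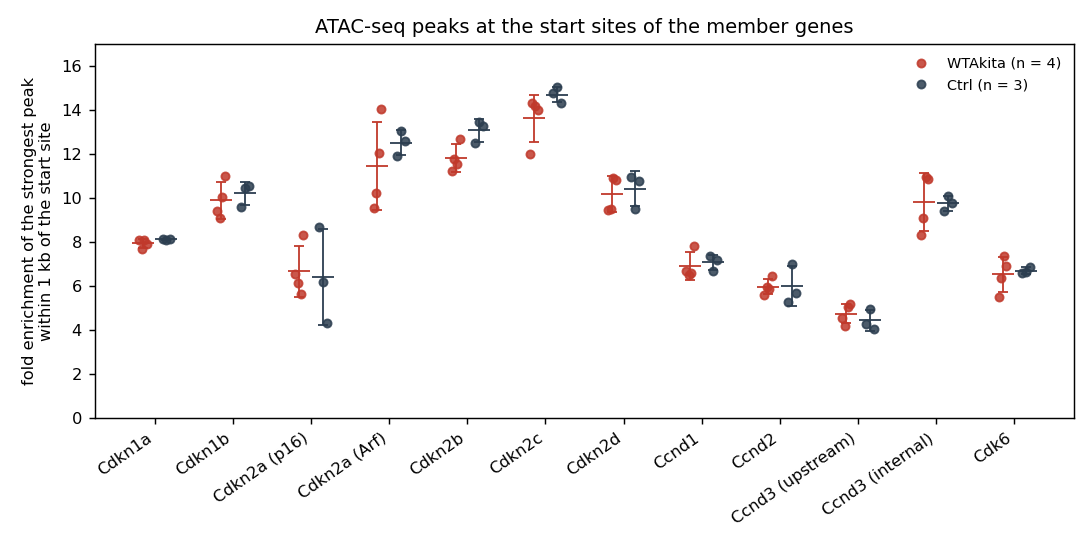
Fold enrichment of the strongest peak within 1 kb of each of 12 main start sites (vertical axis, linear from 0), 1 point per library, with the group mean and SD as bars, WTAkita (n = 4) in red left of Ctrl (n = 3) in dark blue. The 2 groups overlap except at Cdkn2c and Cdkn1a, where every WTAkita value is narrowly below every Ctrl value. The highest WTAkita and lowest Ctrl values are 14.31 and 14.32 at Cdkn2c, and 8.098 and 8.100 at Cdkn1a. After normalization the groups overlapped at both. Cdkn2c has the highest median (range 12.01 to 15.02) and the upstream start of Ccnd3 the lowest (4.04 to 5.18).

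Ordered by median fold enrichment over the 7 libraries, the 12 main starts ran Cdkn2c (14.3), Cdkn2b (12.5), Arf (12.1), Cdkn2d (10.8), Cdkn1b (10.03), Ccnd3 internal (9.77), Cdkn1a (8.10), Ccnd1 (6.68), Cdk6 (6.64), p16INK4a (6.19), Ccnd2 (5.86) and Ccnd3 upstream (4.56). Of the 11 neighbouring pairs in that order, 9 had overlapping ranges. The ranges came apart between the internal start of Ccnd3 and Cdkn1a and between Ccnd2 and the upstream start of Ccnd3. Ordered by median summit pileup, Cdkn2d led with 730 tags, followed by Ccnd3 internal (450), Cdkn1b (339), Cdkn2c (338), Ccnd2 (315), Cdkn1a (278), Ccnd1 (240), Cdk6 (225), Ccnd3 upstream (196), Cdkn2b (122), Arf (103) and p16INK4a (40). Of these 11 neighbouring pairs 3 did not overlap, Cdkn2d and the internal start of Ccnd3, the upstream start of Ccnd3 and Cdkn2b, and Arf and p16INK4a. The order depended on the measure, as the local background that divides the pileup ran from a median of 5.13 tags at p16INK4a and 8.62 and 8.78 tags at Arf and Cdkn2b to 55.5 tags at Ccnd2 and 65.7 tags at Cdkn2d. Ccnd2 was in place 11 by fold enrichment and in place 5 by pileup.

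**Figure D3:**
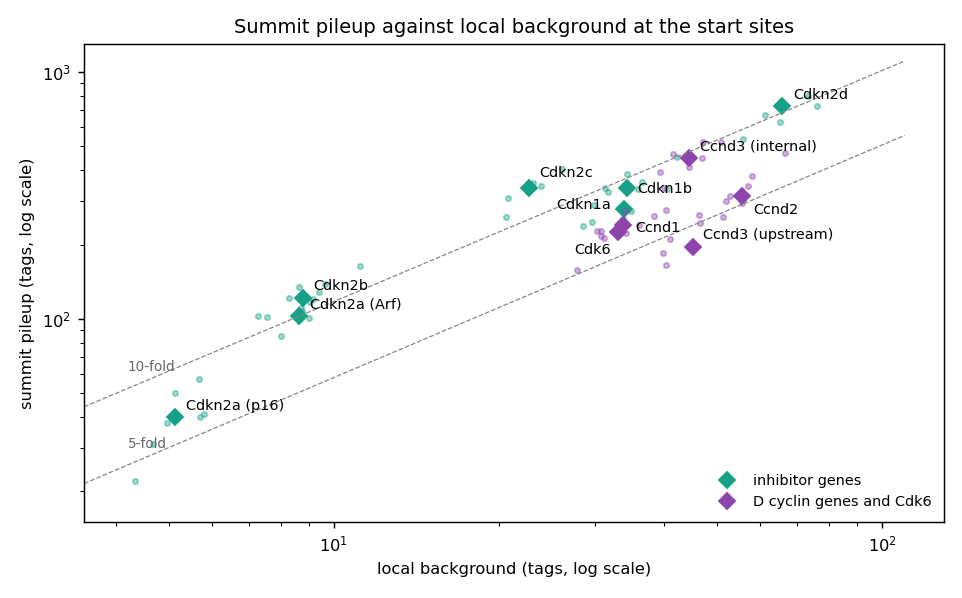
Summit pileup (vertical axis, tags, log scale) against local background (horizontal axis, tags, log scale) at the start sites, with small points for the 7 libraries, diamonds for their medians, inhibitor genes in green and D cyclin genes and Cdk6 in purple, and dashed lines at 5-fold and 10-fold enrichment. The 3 starts of the Cdkn2a and Cdkn2b locus sit apart at the low end of both axes, p16 at 40 tags over a background of 5.13.

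Distances are from the nearest annotated start of the gene unless another start is named. For 6 of the 10 genes the strongest distal peak, one over 1 kb from any protein-coding start, had higher fold enrichment than the gene's own start peak in all 7 libraries. These were Cdkn1a, Cdkn2d, Ccnd1, Ccnd2, Ccnd3 and Cdk6, and since the strongest of several regions was picked, the count is a description. Fold enrichment also depends on the local background, and distal and start peaks were not compared by summit pileup. Ccnd1 stood out, with mean fold enrichment of 26.0 at a peak 31.3 kb upstream (chr7:144970837-144971686), 3.73 times that at its start. That peak had 22.8, 27.0, 28.8 and 26.1 in the WTAkita libraries, against 25.6, 26.7 and 25.1 in the Ctrl libraries. For Ccnd2 the peak 10.8 kb upstream, in an intron of the noncoding gene 9330179D12Rik (chr6:127162697-127163315), had 17.7, 18.3, 20.1 and 19.8 in the WTAkita libraries, against 17.7, 19.4 and 18.4 in the Ctrl libraries. For Cdk6 the peak 40.2 kb upstream (chr5:3300756-3301630) varied more, with 12.1, 19.3, 21.2 and 16.1 in the WTAkita libraries, against 12.2, 22.8 and 14.9 in the Ctrl libraries. The groups overlapped at all 3 peaks. The 200 bases around their summits are shown on the plus strand, because they were the strongest distal peaks of these genes, from chr7:144971024-144971223, chr6:127162897-127163096 and chr5:3301167-3301366, with motif matches in capitals.
Ccnd1, 31.3 kb upstream: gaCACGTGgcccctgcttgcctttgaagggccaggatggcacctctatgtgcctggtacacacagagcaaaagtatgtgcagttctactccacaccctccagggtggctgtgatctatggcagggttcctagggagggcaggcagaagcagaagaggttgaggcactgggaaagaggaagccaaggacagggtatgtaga
Ccnd2, 10.8 kb upstream: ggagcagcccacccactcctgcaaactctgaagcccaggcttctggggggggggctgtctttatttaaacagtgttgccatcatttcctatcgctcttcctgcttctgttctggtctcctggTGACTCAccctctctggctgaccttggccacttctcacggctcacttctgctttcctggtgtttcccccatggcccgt
Cdk6, 40.2 kb upstream: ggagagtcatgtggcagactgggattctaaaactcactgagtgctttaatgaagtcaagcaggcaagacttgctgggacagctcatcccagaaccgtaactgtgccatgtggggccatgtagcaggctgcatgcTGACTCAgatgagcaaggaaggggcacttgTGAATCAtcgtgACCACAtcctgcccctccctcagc
The Ccnd1 window held an E-box (found in 3.80% of the 92239 distal summit windows of the genome), the Ccnd2 window AP-1 (8.85%), and the Cdk6 window a pair of AP-1 matches and a RUNX core (26.5%).

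The strongest distal peaks of the remaining genes overlapped between the groups too. That of Cdkn1a lay 17.7 kb downstream of the open start (chr17:29111274-29112085; 14.1 to 17.4 over the 7 libraries), and that of Cdkn1b lay 27.0 kb downstream in an intron of the noncoding gene Lockd and was the most variable (6.45 to 15.5). That of Cdkn2c lay 8.1 kb downstream, in 9630013D21Rik (11.2 to 14.9), and that of Cdkn2d lay 22 kb upstream (10.8 to 14.7). That of Ccnd3 lay 49.6 kb past its last start, in an intron of Usp49 (15.6 to 22.9). Cdk6 had the most regions, 47 in its window, and 30 of them were called in all 7 libraries. Ccnd3 followed with 34 regions (28 in all libraries), and Cdkn2c had the fewest, 9 (7 in all libraries). The Cdk6 and Ccnd3 windows were also the longest (289524 and 194641 bp). For its length the Cdkn1a window held the most regions (26 in 109752 bp) and the Cdkn2c window (106314 bp) the fewest.

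**Figure D4:**
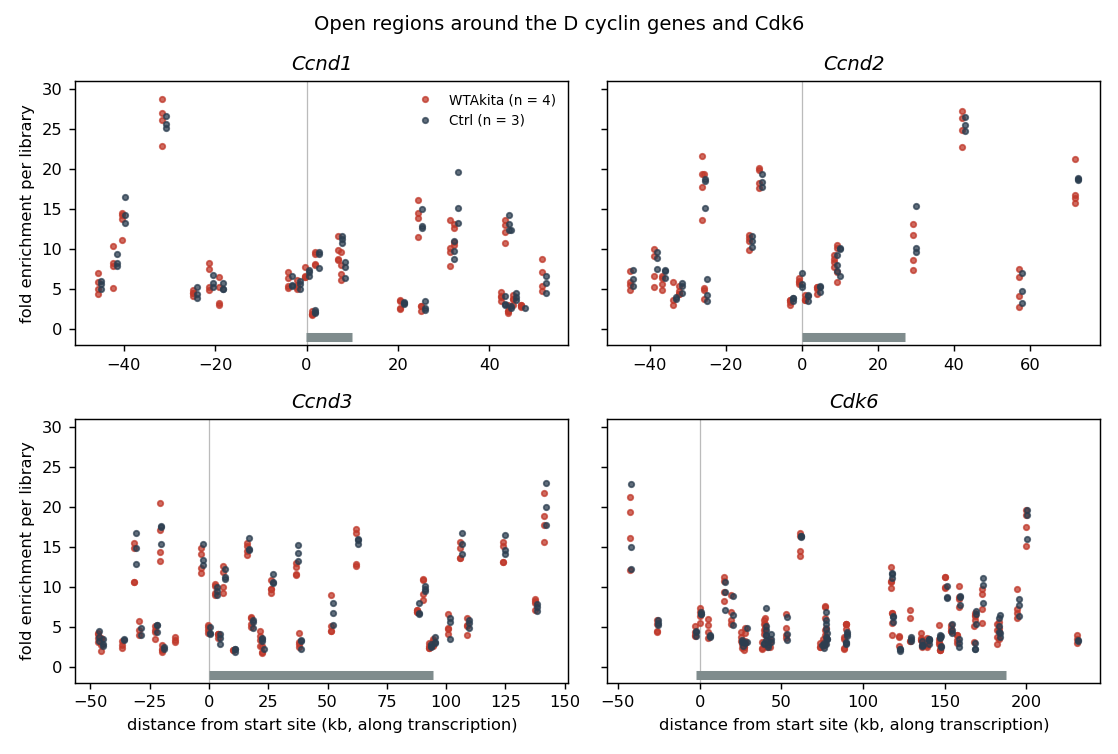
Fold enrichment per library (vertical axis) of every region around Ccnd1, Ccnd2, Ccnd3 and Cdk6 against distance from the start site in kb along transcription, gene bodies drawn as bars, WTAkita (n = 4) in red and Ctrl (n = 3) in dark blue. The Ccnd1 peak 31.3 kb upstream (22.8 to 28.8) and the Ccnd2 peak 10.8 kb upstream (17.7 to 20.1) rise above the start peaks of both genes, which lie between 5.25 and 7.82.

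Of the 207 regions, 168 were distal, 17 lay within 1 kb of a start of the 10 genes and 22 within 1 kb of another gene's start. By annotation 116 summits were in introns, 53 in intergenic sequence, 17 in UTR exons, 13 in noncoding exons and 8 in coding exons. A total of 165 regions (79.7%) were called in all 7 libraries, beside 111224 (81.0%) of all regions, and these were the ones tested. The 42 regions missed in at least 1 library were weak, and each WTAkita library missed 6 to 12 of them and each Ctrl library 12 to 16. To be listed, a region had to be found in 75% of the libraries of either group, which for Ctrl meant every library. The listing was thus stricter for Ctrl, and the groups are not compared on these misses.

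The groups were then compared in every tested region of the genome with limma on the quantile-normalized log2 fold enrichment. None of the 165 regions near these genes passed an adjusted p of 0.05 (Benjamini-Hochberg), and the smallest adjusted p was 1.00, beside 0 of 111224 regions (0.0%) over the genome. Before adjustment, 3 of the 165 regions had a p under 0.05 and were higher in WTAkita cells, beside 1.73% of all regions, and 3 were lower, beside 2.0% of all regions. The groups did not overlap, after normalization, in 5 regions higher in WTAkita cells (2.52% of all regions) and in 2 lower in WTAkita cells (2.19% of all regions). With so few regions, these counts were near what the genome-wide shares give for 165 regions. The median log2 difference (WTAkita minus Ctrl) was 0.03 over the 165 regions and 0.01 over all regions. In these bulk libraries, fewer cells with an open site and a less open site in each cell cannot be told apart.

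At the start sites the log2 differences were small beside their errors. They ran from -0.07 at Cdkn2b (SE 0.11) and -0.06 at Arf (SE 0.10) to 0.16 at p16INK4a (SE 0.25) and 0.15 at the upstream start of Ccnd3 (SE 0.15). No start had an adjusted p below 1.00 by limma. Cdkn2c was at -0.04 (SE 0.10), Cdkn1a at 0.04 (SE 0.15), Cdkn1b at 0.03 (SE 0.11), Cdkn2d at 0.04 (SE 0.13), Ccnd1 at 0.03 (SE 0.16), Ccnd2 at 0.07 (SE 0.15), the internal start of Ccnd3 at 0.07 (SE 0.11) and Cdk6 at 0.03 (SE 0.14). Of the 17 start regions 14 were above 0 and 3 below. Over 15227 protein-coding start sites 67.4% were above 0, but these were 1 region per gene, the strongest, whereas the 17 include weaker second starts. Without WTAkita replicate 1 the 17 split to 7 above and 10 below, and without Ctrl replicate 2 to 8 above and 9 below. With tag numbers scaled by depth 1 was above and 16 below, and the median of all regions moved to -0.12.

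**Figure D5:**
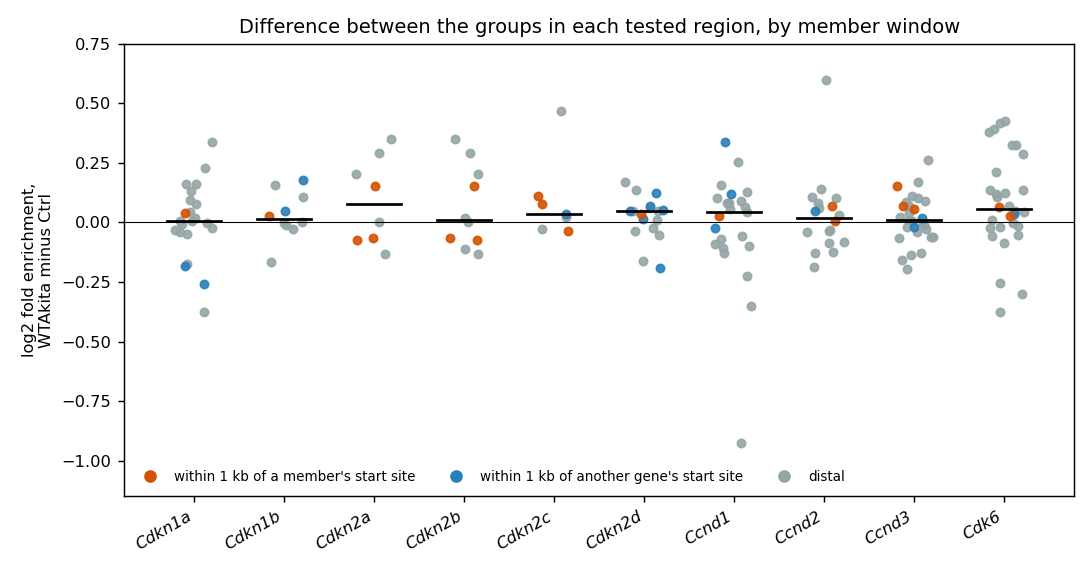
Log2 difference in fold enrichment (WTAkita minus Ctrl, vertical axis) of each tested region, by the gene whose window holds it, with the gene's median as a bar and colors for start and distal regions. The medians lie near 0, and the lowest point, at -0.93 near Ccnd1, rests on 1 Ctrl library.

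The 5 regions with the largest moderated statistic in each direction were distal, as were 130 of the 165 tested regions. Of these 10 leading regions 7 were near Cdk6 or Ccnd1, which held 30 and 23 of the 165. The largest statistic was that of a region 32.7 kb downstream of the Ccnd1 start, in an exon of the noncoding gene Gm39119 (chr7:144906823-144907480). It had 10.5, 10.9, 13.1 and 12.7 in the WTAkita libraries, against 13.2, 19.7 and 15.1 in the Ctrl libraries. All 4 WTAkita libraries were below all 3 Ctrl libraries, the log2 difference was -0.35 (SE 0.11), and limma gave an adjusted p of 1.00. Its summit sequence is shown because it had the largest statistic of the 165 (chr7:144907055-144907254, plus strand).
Ccnd1, 32.7 kb downstream: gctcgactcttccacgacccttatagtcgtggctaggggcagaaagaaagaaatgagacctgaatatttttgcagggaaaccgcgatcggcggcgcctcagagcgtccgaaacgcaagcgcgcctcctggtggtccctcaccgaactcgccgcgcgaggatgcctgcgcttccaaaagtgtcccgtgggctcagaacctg
It held none of the motifs searched and was rich in CpG, with 20 CpG dinucleotides and an observed-to-expected ratio of 1.13, where the median distal window had 0.22. A region 10.1 kb upstream of Cdkn1a had 2.79, 2.51, 2.56 and 2.59 in the WTAkita libraries, against 3.73, 3.07 and 3.64 in the Ctrl libraries (log2 difference -0.37, SE 0.16; limma adjusted p = 1.00).

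In the other direction, 3 regions inside Cdk6 had the largest statistics. The region 39.4 kb into the gene had 4.58, 5.30, 4.09 and 5.79 in the WTAkita libraries, against 3.93, 3.95 and 3.39 in the Ctrl libraries (log2 difference 0.43, SE 0.18; limma adjusted p = 1.00). With only summits inside the region its difference was 0.28 (SE 0.18). The region 89.3 kb into the gene had 5.35, 4.72, 5.36 and 5.30 in the WTAkita libraries, against 4.39, 4.09 and 3.79 in the Ctrl libraries (log2 difference 0.38, SE 0.17). The region 135.3 kb into the gene had 3.30, 4.19, 3.33 and 3.58 in the WTAkita libraries, against 2.73, 2.60 and 3.19 in the Ctrl libraries (log2 difference 0.39, SE 0.17). Every WTAkita library was above every Ctrl library at all 3 before normalization and at the last 2 of them after it, and in mean all 3 were weaker than the peak at the main Cdk6 start. Cdk6 also held regions lower in WTAkita cells, at 147.0 kb (2.09, 2.15, 2.77 and 2.06 in the WTAkita libraries, against 2.53, 3.88 and 2.66 in the Ctrl libraries) and at 172.6 kb (log2 difference -0.26, SE 0.14). Of its 30 tested regions 20 were above 0 and 10 below, with a median of 0.06. It held all 3 higher regions and 1 of the 3 lower regions with p under 0.05 before adjustment.

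Single libraries carried some of the remaining differences. A region 15.9 kb downstream of Cdkn2c had 3.03, 3.42, 3.77 and 7.19 in the WTAkita libraries, against 2.90, 2.90 and 3.24 in the Ctrl libraries (log2 difference 0.47, SE 0.22), and the fourth WTAkita library set much of it. A region 44.4 kb downstream of Ccnd1 had 2.04, 2.96, 2.26 and 2.303 in the WTAkita libraries, against 12.4, 2.65 and 2.85 in the Ctrl libraries (log2 difference -0.93, SE 0.44). In Ctrl replicate 1 a stronger neighbouring peak had been joined to it, and with only summits inside the region the difference was -0.05. By contrast, a region 39.9 kb upstream of Cdkn1a had 4.59, 4.48, 5.02 and 4.62 in the WTAkita libraries, against 3.61, 4.39 and 3.59 in the Ctrl libraries (log2 difference 0.34, SE 0.16). Its groups did not overlap, and its difference ran from 0.28 to 0.39 with 1 library left out. It did not pass the adjusted threshold. The 2 regions whose groups did not overlap outside these lists, chosen after their values were seen, were 5.3 kb into Cdk6 (log2 difference 0.33) and 36.5 kb upstream of Ccnd2 (-0.19).

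No region near the 10 genes was called in all libraries of one group and in none of the other. Over the genome 187 regions (0.136%) were called in all WTAkita and no Ctrl libraries and 255 (0.186%) in all Ctrl and no WTAkita libraries. A total of 3 weak regions were called in 3 of 4 WTAkita libraries and no Ctrl library, in an intron of Lockd near Cdkn1b, at the Rab44 start near Cdkn1a and in Taf8 near Ccnd3, with fold enrichment from 1.98 to 3.77. Over the genome 1050 regions (0.765%) had this pattern. A region had to be found in 3 of 4 WTAkita or in all 3 Ctrl libraries to be listed, so the listing was stricter for Ctrl and the groups are not compared on this count.

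The same comparison was read at the start sites of 39 other genes of the G1 to S transition, among them Cdk2, Cdk4, the E-type and A-type cyclins, the Rb family, the E2F factors, Skp2, Trp53 and Mdm2. All 39 were tested, 26 were above 0 and 13 below, and the median was 0.02, beside 0.03 over all protein-coding starts. The split turned to 17 above and 22 below without WTAkita replicate 1, and to 0 above and 39 below with tag numbers scaled by depth. In that last setting 86916 of the 111224 regions over the genome were below 0, with a median of -0.12. None passed the adjusted threshold in either direction, and 0 of 39 had a p under 0.05 before adjustment, beside 1.38% of all 15227 start sites. The farthest were Ccne2, a partner of CDK2, at 0.17 (SE 0.12) and Rbl1, a relative of Rb, at 0.15 (SE 0.11) above 0, and Mnat1, a subunit of the CDK-activating kinase, at -0.12 (SE 0.12) and Rb1 at -0.06 (SE 0.14) below it. The groups did not overlap at the start of 1 gene of the 39, Ccnb1, a mitotic cyclin (0.10, SE 0.06), which was picked out after its values were seen. Of all 15227 protein-coding starts, 386 were without overlap and higher in WTAkita cells, and 148 without overlap and lower. A count of 1 in 39 is near that share.

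The libraries held an estimated 40500000 to 53100000 tags (WTAkita) and 37600000 to 51900000 tags (Ctrl), and the median fold enrichment of all peaks was 5.25 to 6.59 in WTAkita libraries and 5.79 to 6.48 in Ctrl libraries. All 12 LSK marker genes, Kit, Ly6a, Cd34 and Flt3 among them, had a start peak in all 7 libraries, with summed fold enrichment of 110 to 133 in WTAkita libraries and 119 to 130 in Ctrl libraries. Among markers of other cell types, start peaks in all libraries were found for 2 of 4 B cell genes (sum 24.3 to 28.9 in WTAkita, 25.9 to 29.4 in Ctrl), 1 of 4 T cell genes (15.7 to 20.02 and 11.9 to 17.6), 2 of 5 neutrophil and monocyte genes (13.4 to 21.7 and 13.6 to 16.6), 2 of 4 erythroid genes (20.2 to 35.3 and 28.1 to 30.6) and 4 of 5 genes of stroma, endothelium and liver (36.6 to 47.6 and 42.4 to 46.2). Ms4a1, Cd3e, Cd8a, Camp, Slc4a1 and Alb had no start peak in any library. An open start does not show expression, and the part of other cell types in the values above was not tested.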

How the data were processed

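LSK cells (50000 per library) were profiled by ATAC-seq in 4 WTAkita and 3 Ctrl libraries. Per the study's methods and the submitters' processing notes, the authors trimmed reads (Trim Galore 0.4.2, cutadapt 1.9.1), aligned them to mm10 (Bowtie2 2.3.4.1), deduplicated the alignments and ran the MACS2 peak caller (2.1.4 in the processing notes, another release in the methods) on each library alone at a lenient p, with no control library and with summits split. The deposited files give for each peak a fold enrichment, a ratio of summit pileup to local background in that library and not scaled between libraries, its -log10 p and -log10 q, a display score that was not used, and the summit position. A region has no value in a library without a peak there.

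Lines sharing start and end were counted once. The summit pileup, the local background and the number of tags of a library were solved from the fold enrichment and the -log10 p. Following the study, peaks found in 75% of a group's libraries and sharing 50% of their length were joined to regions, and a region was called where peaks covered 50% of it. Its value was the highest fold enrichment among peaks sharing 50% of the shorter length. Values were put on the log2 scale with no pseudocount, quantile-normalized and then compared by limma 3.58.1 with a mean-variance trend (R 4.3.3) over the 111224 regions called in all libraries, with Benjamini-Hochberg adjustment. The fit was tested on simulated data. Depth sets the precision of weak peaks, and no interval was computed from the tags. Sequences and start sites came from GRCm38.p6 and GENCODE vM21. The regions named were the start sites, the strongest distal region of each gene, the 5 with the largest moderated statistic in each direction, and the 2 genes of the G1 to S list farthest on each side. Figures were drawn with matplotlib 3.10.9. The genes and lists were chosen with earlier results of these data known. Alternatives were a stricter peak threshold, other normalization, region values and windows, tag numbers in place of ratios, a block on the replicate number, and the leaving out of single libraries. No pair of libraries agreed within sampling noise (mean chi-square 1.48 to 2.23 per region), and none was counted as a repeat. Separate preparations from 1 pool of cells could also differ by more than this noise. The values therefore do not show that the libraries came from separate pools.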

Additional observations from a re-analysis of the deposited data

Results flagged for a closer look

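Among the 35 regions named for these genes, 5 had 1 WTAkita library far from the other 3 by Dixon's criterion, and chance flags about 1 in 20 groups. The criterion was applied to log2 fold enrichment before normalization, which is not scaled between libraries. The median of all peaks was 5.25 in WTAkita replicate 1 and 6.59 in WTAkita replicate 4. The second Cdkn2c start had 4.67 in WTAkita replicate 2, below the other libraries of the group. By percentile among start peaks of the same library, WTAkita replicates 1 to 4 stood at 32.2, 25.9, 28.7 and 26.4. The main Cdkn2c start had 12.01 in WTAkita replicate 1, below the others at 14.0 to 14.3. Its percentiles were 64.2, 70.8, 64.4 and 61.6, with replicate 1 among the others. The Ccnd1 start had 7.82 in WTAkita replicate 4, above the others at 6.50 to 6.68. Its percentiles were 38.6, 35.4, 33.6 and 36.4, with replicate 4 among the others. The Cdk6 region 89.3 kb into the gene had 4.72 in WTAkita replicate 2, below the others at 5.30 to 5.36. The Cdk6 region at 147.0 kb had 2.77 in WTAkita replicate 3, above the others at 2.06 to 2.15. The Ctrl group, with 3 libraries, was too small for this criterion.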

How the results depend on the processing

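No region near the 10 genes passed an adjusted p of 0.05 under any alternative, those that left out 1 library included (0 calls each). With the replicate block the count was 0, with 6 of the 165 regions higher and 2 lower at p under 0.05 (limma) before adjustment. In that setting 2426 of all 111224 regions were higher and 4000 lower. With so few regions near these genes, their split is given as a description. Correlations of deviations between WTAkita and Ctrl libraries of the same number were 0.19, 0.01 and 0.06 for replicates 1, 2 and 3. Those between libraries of unlike numbers ran from -0.15 to 0.09, so replicate 1 had the highest value. Whether the replicate numbers pair the libraries was not tested further. Over the genome, calls by setting were 7 higher and 116 lower with tag numbers scaled by depth, 7 and 11 with regions called in at least 5 of 7 libraries, 2 and 2 with regions called at any overlap, 1 and 2 with values from any touching peak, and 0 and 28 without Ctrl replicate 2, 0 and 12 without Ctrl replicate 1, 0 and 8 without Ctrl replicate 3 and 0 and 3 without WTAkita replicate 4. Every other setting gave 0 and 0. With tag numbers scaled by depth, and relative to the median of all regions, 8 start regions lay on the other side of 0, at -0.12 (Cdkn1b), -0.090 and -0.035 (main and other Cdk6 start), -0.028 and -0.089 (main and other Ccnd2 start), -0.023 (Cdkn1a), -0.011 (Cdkn2d) and -0.0070 (Ccnd1), against 0.01 to 0.07 before, and the internal start of Ccnd3 was at 0.0041. The cause was not tested. The difference at the p16INK4a start ran from -0.11 to 0.47 over the alternatives, and that 32.7 kb downstream of Ccnd1 from -0.41 to -0.23. With windows of 10 kb the peaks per library had a median of 121, against 218 with 50 kb, as the windows are shorter. Regions called in all libraries of a single group numbered 0 to 3 with 1 library left out (3 without WTAkita replicate 2, beside 0.371% of all regions, and 2 without Ctrl replicate 2, beside 0.453%, all of them WTAkita only). The 3 start sites of Cdkn2a and Cdkn2b stayed open with peaks at a -log10 p of 5 or more. With 250 bp in place of 1 kb, 16 of 21 pairs of site and library had a peak, and the 5 that did not were at Cdkn2b. The value from summits inside a region was added after the data were seen. With 4 and 3 libraries, small differences could not be resolved, in strong peaks as in weak ones. The absence of calls therefore does not show that accessibility was equal.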

Other observations

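Other genes' starts inside the windows held some of the strongest peaks. The Tigar start in the Ccnd2 window, which overlaps the noncoding gene Platr31, had fold enrichment of 22.8 to 27.3 over the 7 libraries, where the Ccnd2 start had 5.25 to 7.01, and the Faf1 start in the Cdkn2c window had 17.3 to 22.2. The Ccnd2 region 25.4 kb upstream had 5.12, 3.75, 4.86 and 19.3 in the WTAkita libraries, against 3.47, 6.31 and 4.21 in the Ctrl libraries (log2 difference 0.60, SE 0.41, the highest difference of the 165 regions), the value of WTAkita replicate 4 coming from a neighbouring peak joined to it.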
